A study of Mus musculus with 2 samples.

Results

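Granulocyte progenitors, the dividing precursors of neutrophils that are normally found in bone marrow, were described in single cells from fibrotic mouse liver. A cell was counted as a progenitor when at least 2 of the 4 genes Elane, Prtn3, Mpo and Ctsg each had at least 2 unique molecular identifiers (UMIs, tags that count single RNA molecules). The members were thus chosen by the measured UMIs of these 4 genes, whose values are given as a description. By this rule 57 of 20753 cells were progenitors, 26 of 10294 in the library of the CCl4 group and 31 of 10459 in that of the group also given IPA. The data were 2 libraries of 10x Genomics 3′ single-cell RNA sequencing, 1 for each group. Fibrosis had been induced in both groups with carbon tetrachloride (CCl4), a liver toxin, and 1 group was also treated with IPA, which the series names as indole propionic acid, a product of gut bacteria acting on tryptophan. Livers were digested with enzymes, red cells were lysed and dead cells were removed before loading. Strain, age, dose, duration and the number of animals behind each library are not given in the sources used here. With 1 library per group no difference between groups had a replicate check, so values and ratios are given with exact 95% counting intervals, which cover counting error only.

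Neutrophils are made in steps that can be read from their granules. Promyelocytes fill the primary (azurophil) granules with the serine proteases neutrophil elastase (Elane), proteinase 3 (Prtn3) and cathepsin G (Ctsg) and with myeloperoxidase (Mpo). Myelocytes then make secondary granule proteins such as cathelicidin (Camp), neutrophilic granule protein (Ngp) and lactoferrin (Ltf), and cells that have stopped dividing take on gelatinase (Mmp9) and the chemokine receptor Cxcr2. Monocytes branch from the same precursors, and early cells of that branch also carry primary granule transcripts. The transcription factors Cebpe and Gfi1 are known for the granulocyte branch, and Irf8 and Klf4 for the monocyte branch.

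The 250 bases before the transcription start of each of the 4 genes that chose the cells are shown, since members differed in how much of each gene they held. The sequences are from RefSeq on the GRCm38.p6 build, read 5′ to 3′ on the strand of the gene, and all 4 genes were found in its promoter table. They lie at chr10:79886062-79886311 on the plus strand for Elane, chr10:79879417-79879666 on the plus strand for Prtn3, chr11:87793534-87793783 on the plus strand for Mpo and chr14:56102575-56102824 on the minus strand for Ctsg. Capitals mark AGGAAGT, the core of sites of ETS-family factors such as PU.1.
Elane: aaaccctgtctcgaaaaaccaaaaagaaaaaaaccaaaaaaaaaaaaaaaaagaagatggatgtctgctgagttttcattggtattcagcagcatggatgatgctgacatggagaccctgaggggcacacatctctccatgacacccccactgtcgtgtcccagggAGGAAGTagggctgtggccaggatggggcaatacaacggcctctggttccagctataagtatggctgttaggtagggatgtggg
Prtn3: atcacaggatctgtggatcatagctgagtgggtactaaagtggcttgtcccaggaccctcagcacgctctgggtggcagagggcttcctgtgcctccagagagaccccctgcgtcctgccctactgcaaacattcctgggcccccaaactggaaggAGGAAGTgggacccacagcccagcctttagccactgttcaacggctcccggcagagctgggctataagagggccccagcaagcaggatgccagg
Mpo: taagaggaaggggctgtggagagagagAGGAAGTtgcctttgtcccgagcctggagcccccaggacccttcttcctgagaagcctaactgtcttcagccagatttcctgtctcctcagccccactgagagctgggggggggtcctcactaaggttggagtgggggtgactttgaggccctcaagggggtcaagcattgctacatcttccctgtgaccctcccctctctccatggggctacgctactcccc
Ctsg: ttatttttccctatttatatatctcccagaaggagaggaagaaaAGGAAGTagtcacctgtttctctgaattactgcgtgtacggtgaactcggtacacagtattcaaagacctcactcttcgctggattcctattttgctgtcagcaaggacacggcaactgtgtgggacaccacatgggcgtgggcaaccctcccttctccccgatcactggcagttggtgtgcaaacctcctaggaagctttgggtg

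AGGAAGT, searched on both strands, was in the window of 4 of 4 genes and in 7.80% of 27025 RefSeq promoters of this length. It began 84 bases before the start in Elane, 94 in Prtn3, 223 in Mpo and 206 in Ctsg, each on the strand of the gene. AACGG, the core of MYB sites, was in 2 of 4 (Elane and Prtn3) and in 14.8% of all promoters. GCAAT, part of a C/EBP site, was in 2 of 4 (Elane and Mpo) and in 23.3% of all promoters. A match is a description of the letters in this window.

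The libraries held 45009730 UMIs (CCl4) and 37983923 UMIs (IPA), and the kept cells had medians of 3195 and 2772 UMIs. The progenitors were deep beside these cells, with medians of 20712.5 and 18216 UMIs and ranges of 2347 to 52228 and 2606 to 35852. Together they held 581063 and 583219 UMIs, so that 3 UMIs, the limit that a count of 0 allows, correspond to 5.16 and 5.14 counts per 1000000 UMIs (CPM). No progenitor was called a doublet by Scrublet, which called 2.70% and 3.16% of all kept cells, and 0 of the 23 barcodes present in both libraries belonged to a progenitor. The median doublet score of the progenitors was 0.0598 (CCl4) and 0.115 (IPA). Their median mitochondrial share was 2.46% and 1.19%, against 3.52% and 1.78% in all kept cells. The 4 genes were detected at low rates in the cells outside the myeloid classes defined here. An Elane UMI was present in 0.777% (CCl4) and 0.198% (IPA) of those cells, at median depths of 3128.5 and 2808 UMIs. Prtn3 was present in 1.61% and 0.386%, Mpo in 1.18% and 0.331%, and Ctsg in 0.846% and 0.0882%.

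The 4 genes varied widely among the progenitors. Elane ranged from 0 to 572 UMIs per cell with a median of 21.5 among CCl4 cells, and from 0 to 408 with a median of 21 among IPA cells. Prtn3 ranged from 0 to 735 (median 45) and from 2 to 291 (median 39). Mpo ranged from 0 to 355 (median 27.5) and from 0 to 212 (median 15). Ctsg ranged from 0 to 165 (median 10.5) and from 0 to 59 (median 4). The ranges of all 4 genes overlapped between the libraries, and the highest cell was in the CCl4 library for each. All 4 genes passed the limit of 2 UMIs in 27 cells (15 and 12), 3 genes in 14 cells (3 and 11) and 2 genes in 16 cells (8 and 8). Together they made up 0.0407% to 5.16% of the UMIs of a CCl4 cell (median 0.652%) and 0.0245% to 4.96% of those of an IPA cell (median 0.572%). Just inside the rule, 5 and 4 members had 2 or 3 UMIs in the second-highest of the genes, and the lowest sum over the 4 genes was 5 UMIs in each library. Just outside it, 66 and 22 cells had exactly 1 gene past the limit, with medians of 3 and 2 UMIs over the 4 genes and highest values of 11 and 9.

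Within a library the genes of the primary granule went together across cells. The Spearman correlation of each gene's share of UMIs was 0.86 (CCl4, 26 cells) and 0.85 (IPA, 31 cells) for Elane with Prtn3, and 0.80 and 0.72 for Mpo with Ctsg. Elane with Ctsg gave 0.88 and 0.54. Ms4a3, a membrane protein of granulocyte and monocyte progenitors that the rule did not use, followed the sum of the 4 genes with 0.90 and 0.80. Klf4 went the other way, with -0.62 and -0.36, but Irf8, also known for the monocyte branch, gave 0.09 and -0.33. Elane, Prtn3, Mpo and Ctsg also chose the cells, and the points share a library and its free RNA. The correlations are therefore given as a description.

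The name granulocyte progenitor held for a part of the members. The rules that defined the other myeloid classes were applied to the 57 cells as well. A total of 12 met the secondary-granule rule (at least 2 of Camp, Ngp, Ltf and Cd177 at 2 or more UMIs), 31 met the monocyte rule (at least 2 of Csf1r, F13a1, Ccr2 and Ms4a6c at 2 or more UMIs), 14 met neither and 0 met both. Over both libraries the 4 primary granule genes took a median of 1.42% of UMIs in the secondary-granule members (0.0245% to 4.56%), 0.320% in the monocyte-rule members (0.0307% to 3.01%) and 2.79% in the members of neither rule (0.0966% to 5.16%). The ranges overlapped, with the lowest median in the monocyte-rule members.

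**Figure D1:**
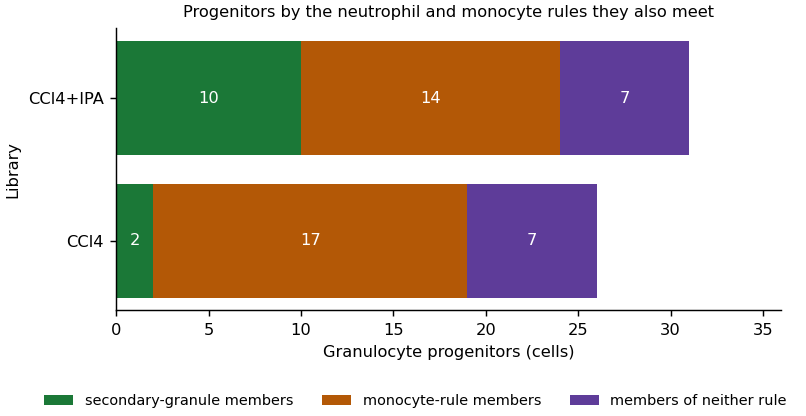
Number of granulocyte progenitors (horizontal axis, cells) in each library, stacked by the other myeloid rule they also met. The CCl4 bar holds 2 secondary-granule members, 17 monocyte-rule members and 7 of neither rule, and the IPA bar holds 10, 14 and 7.

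Genes that no rule used differed in level between the subsets. Irf8 had a UMI in 31 of 31 monocyte-rule members (lowest 1, median 12, highest 44), in 5 of 12 secondary-granule members (median 0, highest 12) and in 7 of 14 of the others (median 1, highest 9). Klf4 was in 31 of 31 (median 7, highest 42), 3 of 12 (highest 2) and 10 of 14 (median 1.5, highest 10). The ranges overlapped. Irf8 was also common outside the progenitors, since 42.5% (CCl4) and 41.7% (IPA) of the shallower remaining cells had a UMI of it, and with each cell thinned to 1000 UMIs it was found in 30.8% and 25.8% of all progenitors against 23.6% and 25.3% of remaining cells. Cebpe, which drives the step to secondary granules, was in 11 of 12 secondary-granule members (median 8.5, highest 22), 5 of 31 monocyte-rule members (highest 2) and 6 of 14 of the rest (highest 7). Ly6c2, a surface protein of monocytes and of early granulocytes, was present in 29 of 31, 12 of 12 and 10 of 14 cells, with medians of 50, 34.5 and 6 UMIs. Ms4a3 was in 16 of 31, 11 of 12 and 8 of 14. The calprotectin subunit S100a8 had medians of 1 UMI in monocyte-rule members, 1762.5 in secondary-granule members and 1.5 in the others.

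Early markers were spread unevenly over the subsets. Cd34, a surface protein of stem and progenitor cells, had a UMI in 21 of 31 monocyte-rule members and 8 of 14 members of neither rule, and in 0 of 12 secondary-granule members, which allows a share of cells with a UMI of up to 25.0%. In the remaining cells, which are far shallower, a Cd34 UMI was found in 146 of 8746 (CCl4) and 113 of 9069 (IPA). A Kit UMI was found in 197 and 331 of them. In monocytes, also shallower than the progenitors, Cd34 was in 152 of 632 and 35 of 303 cells, and Kit in 94 and 20. With each cell thinned to an equal depth, Cd34 was found in 7.69% and 6.45% of progenitors against 4.63% and 1.32% of monocytes. Kit was found in 7.69% and 6.45% against 1.59% and 1.66%. Each progenitor value rests on 2 cells, and the intervals overlapped, so these rates do not separate the progenitors from monocytes. Kit, the receptor for stem cell factor, was in 9 of 31, 9 of 14 and 5 of 12, so that it was found in all 3 subsets. The members of neither rule ranged from cells with strong primary granule signal to cells with little, and the cells named here were chosen after their values were seen. In the CCl4 library the cell with 403 Prtn3 UMIs had 333 Elane, 47 Ms4a3 and 707 S100a8 UMIs with 0 Cd34, while the cell with 8 Prtn3 UMIs had 0 Elane, 0 Ms4a3 and 0 S100a8 UMIs with 7 Kit and 9 Cd34 UMIs. Strong signal also occurred with these markers, since the CCl4 cell with 277 Prtn3 UMIs had 192 Elane, 6 Kit, 5 Cd34 and 0 S100a8 UMIs. In the IPA library the cell with 291 Prtn3 UMIs had 401 Elane, 38 Ms4a3 and 5 Camp UMIs, while the cell with 17 Prtn3 UMIs had 0 Elane, 11 Kit and 12 Cd34 UMIs. That last cell also held 12 UMIs of B cell markers and 31 of Cd74, the invariant chain of MHC class II.

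The secondary-granule members of the IPA library spanned a wide range of granule content. From the lowest to the highest, their Camp UMIs were 6, 26, 144, 273, 460, 580, 719, 808, 1070 and 1311. In the 2 cells with the most Camp the 4 primary granule genes together had 11 and 5 UMIs, with 108 and 102 Ltf UMIs. In the 2 cells with the least Camp they had 693 and 254 UMIs, with 1 and 0 Ltf UMIs. The 2 cells with the least Camp thus carried far more of the primary granule transcripts than the 2 with the most, while the cells between them held 79 to 756 UMIs. In the CCl4 library the 2 secondary-granule members had 168 and 2 Camp UMIs. The first was a deep cell with 572 Elane, 735 Prtn3, 2020 S100a8 and 90 Ms4a3 UMIs, and the second, with 2347 UMIs in all, sat at the edge of the rule with 1 Elane, 2 Mpo and 2 Ctsg UMIs. Both also held Siglech, a marker of plasmacytoid dendritic cells, at 15 and 2 UMIs. No secondary-granule member of the IPA library held it.

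**Figure D2:**
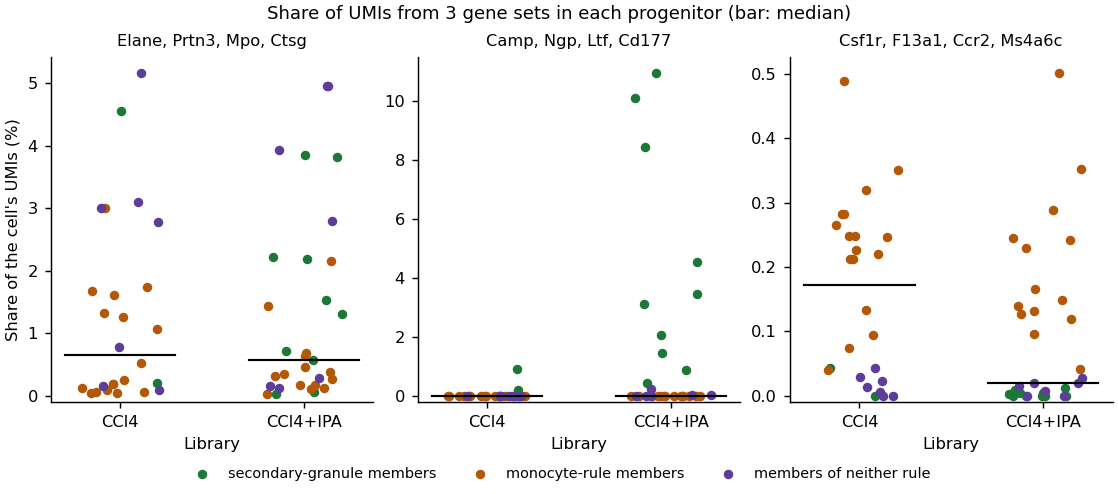
Share of each progenitor's UMIs (vertical axes, %) from the 4 genes of the rule, from the 4 secondary granule genes and from the 4 monocyte genes, by library. Points are cells, colours are the subsets and bars are medians over all progenitors of a library. The medians for the first panel are 0.652% and 0.572%, and most cells high in the second panel are in the IPA library.

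Progenitors were a small and similar share of both libraries. They made up 0.253% of CCl4 cells (Clopper-Pearson interval 0.165% to 0.370%) and 0.296% of IPA cells (0.201% to 0.420%), a ratio of 1.17 (0.674 to 2.06). Over the summed cells of the progenitor, secondary-granule and mature neutrophil classes they were 2.84% of 916 cells and 2.85% of 1087 cells, a ratio of 1.00 (0.577 to 1.76), with the 17 and 14 members that also meet the monocyte rule counted among them. The other classes were 156 and 109 secondary-granule neutrophils, 734 and 947 mature neutrophils and 632 and 303 monocytes, a class whose rule can also take macrophages and dendritic cells. Dead cell removal and dissociation act before these shares are counted. With 1 UMI in place of 2 as the limit, 100 and 37 cells were called, and the log2 ratio of shares went from 0.23 to -1.46. The share of remaining cells with a UMI of each of the 4 genes was higher in the CCl4 library, as given with the depths, and its part in that change was not tested.

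The makeup of the progenitors differed more in the counts than their number did. The secondary-granule rule was met by 2 of 26 CCl4 members (7.69%, 0.946% to 25.1%) and 10 of 31 IPA members (32.3%, 16.7% to 51.4%), a ratio of 4.19 whose interval of 0.894 to 39.4 includes 1. The monocyte rule was met by 17 of 26 (65.4%, 44.3% to 82.8%) and 14 of 31 (45.2%, 27.3% to 64.0%), a ratio of 0.691 (0.315 to 1.49). Neither rule was met by 7 of 26 and 7 of 31, a ratio of 0.839 (0.251 to 2.80). When each progenitor was thinned to 2000 UMIs, 2 and 7 cells met the secondary-granule rule and 6 and 6 the monocyte rule. The intervals of all 3 ratios include 1.

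The progenitors were then set against secondary-granule neutrophils, mature neutrophils and monocytes of the same library. A gene was counted as higher or lower when its CPM differed more than 2-fold the same way in both libraries, among genes with at least 50 UMIs over the classes compared. Against secondary-granule neutrophils 37.9% of 5621 genes were higher and 9.07% lower in progenitors. Against mature neutrophils 27.8% of 7713 genes were higher and 17.8% lower, and against monocytes 7.57% of 9734 were higher and 10.1% lower. The median log2 ratio over all genes was 0.76 and 0.78 (CCl4, IPA) against secondary-granule neutrophils, 0.26 and 0.27 against mature neutrophils and 0.10 and -0.07 against monocytes. Mature neutrophils of the CCl4 library carried 400 CPM of stellate cell markers, against 5.32 in the IPA library, and the part of these in the comparison was not tested.

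Cell division genes set the progenitors apart from all 3 classes. Of the S phase list, 18 of 18 measured genes were higher than in secondary-granule neutrophils, 18 of 18 than in mature neutrophils and 19 of 19 than in monocytes. Of the G2 and M phase list the counts were 18 of 20, 19 of 20 and 18 of 20. Over all genes measured the shares higher were 37.9%, 27.8% and 7.57%. The summed level of the S phase list was 2459 and 2805 CPM in progenitors (CCl4, IPA), against 347 and 400 in secondary-granule neutrophils, 220 and 236 in mature neutrophils and 567 and 711 in monocytes. Rrm2, a subunit of ribonucleotide reductase, stood at 134 and 175 CPM in progenitors and at 1.82 and 1.45 in mature neutrophils, a fold of 73.8 (27.7 to 278) and 121 (40.1 to 595). Ube2c, which feeds the anaphase-promoting complex, was 70.4-fold (37.5 to 149) and 93.4-fold (42.0 to 258) higher than in mature neutrophils, and Birc5 (survivin) 46.8-fold (25.4 to 96.0) and 78.8-fold (32.8 to 247). By cell, Mki67, the proliferation marker Ki-67, had a UMI in 19 of 26 and 26 of 31 progenitors, and the G2 and M phase list reached 8610 and 7045 CPM in secondary-granule members, where 1 of the 2 CCl4 cells held 317 of the UMIs and the other 1, 6407 and 5703 in monocyte-rule members and 1408 and 2027 in members of neither rule.

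Genes for making and exporting protein were higher than in the neutrophil classes. Of the list of endoplasmic reticulum chaperones and translocation genes 17 of 17 were higher than in secondary-granule neutrophils and 15 of 18 than in mature neutrophils, but 1 of 18 than in monocytes. Calr (calreticulin) stood at 907 and 472 CPM, against 76.6 and 52.2 in secondary-granule neutrophils, 132 and 93.3 in mature neutrophils and 350 and 292 in monocytes. Sdf2l1, a co-chaperone of BiP, was 33.9-fold (15.1 to 94.2) above secondary-granule neutrophils in the CCl4 library. Of the ribosome biogenesis list 10 of 10, 12 of 12 and 6 of 14 were higher. For both lists the shares higher over all genes measured were 37.9%, 27.8% and 7.57%. Nop58, a nucleolar protein, was 31.3-fold (14.7 to 79.4) and 23.4-fold (8.82 to 87.7) higher than in secondary-granule neutrophils, and Npm1 (nucleophosmin) stood at 1781 and 1548 CPM against 172 and 94.7.

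**Figure D3:**
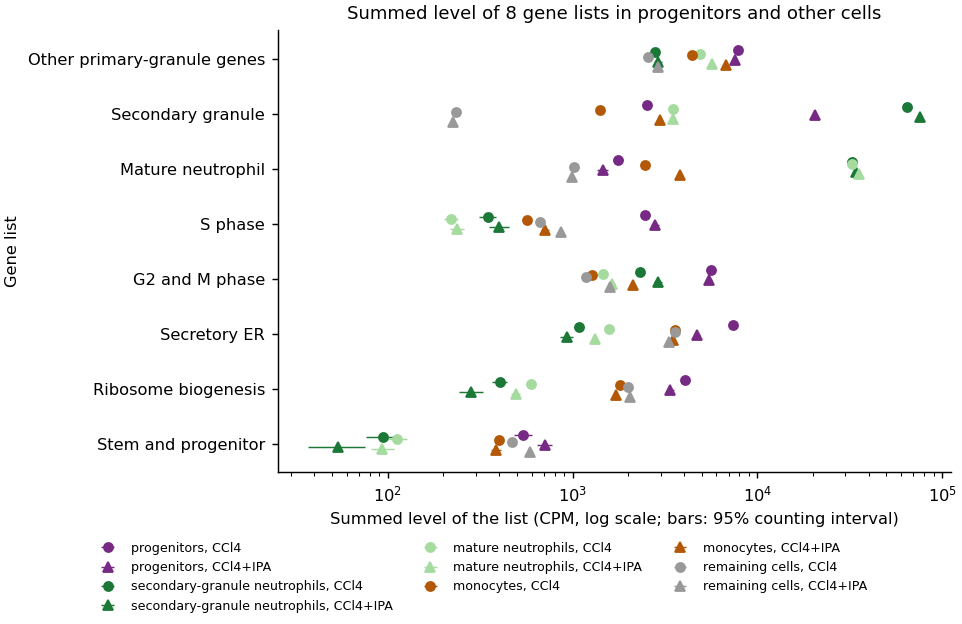
Summed level of 8 gene lists (horizontal axis, CPM on a log scale) in progenitors, secondary-granule neutrophils, mature neutrophils, monocytes and remaining cells, with circles for CCl4 and triangles for IPA and bars for the 95% counting interval. The S phase list is at 2459 and 2805 CPM in progenitors and at most 868 in the other classes shown, and the secondary granule list of progenitors is at 2523 in CCl4 and 20455 in IPA.

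The primary granule list, which leaves out the 4 genes of the rule, was in part higher in the progenitors. Of its 14 measured genes 9 were higher and 1 lower than in secondary-granule neutrophils, and 9 higher and 1 lower than in mature neutrophils. Against monocytes 6 of 15 were higher and 1 lower. Ms4a3 stood at 501 and 355 CPM in progenitors, against 16.7 and 14.7 in secondary-granule neutrophils, 0.454 and 0.483 in mature neutrophils and 0 in monocytes of both libraries. Prss57, a serine protease of the azurophil granule, was 75.7 and 115 CPM against 6.88 and 16.3 in secondary-granule neutrophils and 2.01 in monocytes of each library. Mgst1, a microsomal glutathione transferase, was the exception at 158 and 147 CPM against 559 and 558 in secondary-granule neutrophils. Igfbp4, an IGF-binding protein, was 32.0-fold (21.7 to 48.3) and 38.0-fold (22.9 to 66.9) higher than in monocytes.

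Of the 7 measured stem and progenitor genes 5 were higher and 1 lower against secondary-granule neutrophils, with the same counts against mature neutrophils, and 4 of 8 were higher and 2 lower against monocytes. For these and the lists below, the shares of all genes higher were 37.9%, 27.8% and 7.57%, and those lower 9.07%, 17.8% and 10.1%. Cd34 stood at 103 and 139 CPM, against 4.91 and 1.63 in secondary-granule neutrophils. A Cd34 UMI was also present in 152 of 632 (CCl4) and 35 of 303 (IPA) monocytes. Sox4, a progenitor transcription factor, stood at 170 and 242 CPM against 14.7 and 0 in secondary-granule neutrophils. Of 16 myeloid transcription factors 7 were higher and 0 lower than in secondary-granule neutrophils, near the background of 37.9%, 7 were higher and 4 lower than in mature neutrophils, and 3 were higher and 2 lower than in monocytes. Myb, which maintains dividing progenitors, was 23.1-fold (15.5 to 35.0) and 29.0-fold (17.6 to 50.5) higher than in monocytes. Gfi1 was 25.8 and 54.9 CPM against 2.95 and 8.16 in secondary-granule neutrophils, and Cebpe 55.1 and 195 against 168 and 281. Of the monocyte-branch list, 8 of 12 were higher than in secondary-granule neutrophils, 6 of 14 than in mature neutrophils and 0 of 14 than in monocytes, where 8 of 14 were lower. Csf1r, Ccr2, F13a1 and Ms4a6c of this list had defined the monocytes, so the counts against that class depend in part on that choice. F13a1, coagulation factor XIII A, which is 1 of the genes of the monocyte rule, stood at 546 and 303 CPM in progenitors, 12.8 and 1.63 in secondary-granule neutrophils and 205 and 667 in monocytes.

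Genes of mature neutrophils were low. Of that list 15 of 16 were lower than in secondary-granule neutrophils, 16 of 16 than in mature neutrophils, and 3 of 12 than in monocytes. Retnlg, Cxcr2 and Mmp9 of this list had, with Csf3r, defined the mature class, so their difference from it is set by the choice. Mmp9 was 17.2 and 18.9 CPM in progenitors against 1702 and 2082 in secondary-granule neutrophils, where it was not used, 98.9-fold (53.7 to 207) and 110-fold (61.5 to 222) below. Mmp8, the neutrophil collagenase, was 229-fold (105 to 623) and 200-fold (101 to 463) below that class. The interferon response list was lower in 5 of 17, 10 of 20 and 13 of 20 measured genes against the 3 classes and higher in 0 of them. Of the marrow retention and egress list 4 of 12, 8 of 12 and 3 of 11 measured genes were lower. Over all genes measured the shares lower were 9.07%, 17.8% and 10.1%. Csf3r, the receptor for G-CSF, was 58.5 and 66.9 CPM against 310 and 258 in secondary-granule neutrophils and 1959 and 2548 in mature neutrophils. Among NADPH oxidase subunits 3, 2 and 1 of 6 were lower and 0, 1 and 0 higher. Of the haem synthesis genes, which serve myeloperoxidase, 1 of 3, 2 of 5 and 2 of 7 were higher, beside 37.9%, 27.8% and 7.57% of all genes.

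The progenitors of the 2 libraries were then compared, among 3519 genes with at least 50 UMIs over both libraries. Past 1.5-fold, 381 genes (10.8%) were higher and 387 (11%) lower in the IPA library, with a median log2 ratio of -0.05. The highest ratios included 6 secondary granule genes of 12 named and the lowest were led by ribosomal RNA. Because 2 and 10 progenitors met the secondary-granule rule, each ratio was also taken without those 12 cells, over 24 and 21 cells. In that comparison 13.4% of 3000 genes were higher and 7.37% lower, with a median log2 ratio of 0.04. Within the monocyte-rule members alone (17 and 14 cells), 14.3% of 2329 genes were higher and 10.4% lower, with a median of 0.01. Within the members of neither rule (7 and 7 cells), 12.7% of 557 genes were higher and 7.9% lower, with a median of 0.08.

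Secondary granule genes were higher in the IPA library, where more of the progenitors carried them. Of 12 measured genes of the list 8 were higher and 1 lower (median log2 ratio 2.72), while without the secondary-granule members 3 of 7 were higher and 2 lower (median -0.24), and in monocyte-rule members 2 of 6 were higher and 4 lower (median -0.67). In the same order, 10.8%, 13.4% and 14.3% of all genes measured were higher, and 11%, 7.37% and 10.4% lower. Camp, the antimicrobial cathelicidin, had 171 UMIs in 3 CCl4 cells (294 CPM) and 5441 in 15 IPA cells (9329 CPM), a ratio of 31.7 (27.2 to 37.1). A single cell held 98.2% of the CCl4 UMIs, and the cells outside the secondary-granule members had 1 and 44 UMIs. Ngp, a cystatin-like granule protein, had 150 and 2572 UMIs, a ratio of 17.1 (14.5 to 20.3), and 0 and 3 UMIs outside the secondary-granule members. Camp, Ngp, Ltf and Cd177 chose the secondary-granule members, so what these 4 genes lose when those cells are left out is fixed by that choice and is given as a description. Ltf had 0 and 241 UMIs, at least 80.0-fold higher, all of the 241 in 6 secondary-granule members. Lcn2 (lipocalin 2, which binds bacterial siderophores) had 49 and 693 UMIs, a ratio of 14.1 (10.5 to 19.2) that was 2.08 (1.37 to 3.19) without those cells. Chil3, a chitinase-like protein, had a ratio of 6.81 (5.90 to 7.91) with them and 1.89 (1.57 to 2.28) without. Cd177, a surface protein of neutrophils, had 7 and 82 UMIs with them (11.7, 5.42 to 29.9) and 6 and 1 without.

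Of the 4 S100 genes 2 were higher and 1 lower (median 1.43), beside 10.8% and 11% of all genes. Without the secondary-granule members 1 was higher and 1 lower (median 0.14), beside 13.4% and 7.37%. S100a8 had 3603 and 23922 UMIs, a ratio of 6.61 (6.39 to 6.85), which was 1.41 (1.32 to 1.52) without the secondary-granule members and 1.15 (1.04 to 1.27) in monocyte-rule members. Single cells held much of this, with 56.1% of all CCl4 S100a8 UMIs in 1 cell and 97.2% of those of the IPA monocyte-rule members in another. Its partner S100a9 had ratios of 7.03 (6.77 to 7.30), 1.91 (1.75 to 2.08) and 1.33 (1.18 to 1.51), with 69.7% of all CCl4 S100a9 UMIs in 1 cell and 96.7% of those of the IPA monocyte-rule members in 1 cell. S100a6, another calcium-binding S100 protein, was lower, at 529 and 204 UMIs, 2.60-fold (2.21 to 3.07), with a ratio of 0.578 in monocyte-rule members. Fcnb (ficolin B, a lectin of myelocytes) had a ratio of 4.79 (3.87 to 5.98), 2.18 without the secondary-granule members and 0.646 in monocyte-rule members. Cebpe had 32 and 114 UMIs, a ratio of 3.55 (2.38 to 5.43), of which 18 and 94 were in secondary-granule members. Without them Cebpe had 14 and 20 UMIs (1.98, 0.952 to 4.24), and in monocyte-rule members 4 and 2 (0.746, 0.0675 to 5.20). Gfi1, with 15 and 32 UMIs and so under the limit of 50, had a ratio of 2.13 (1.12 to 4.22), and 53.3% of its CCl4 UMIs were in 1 cell.

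**Figure D4:**
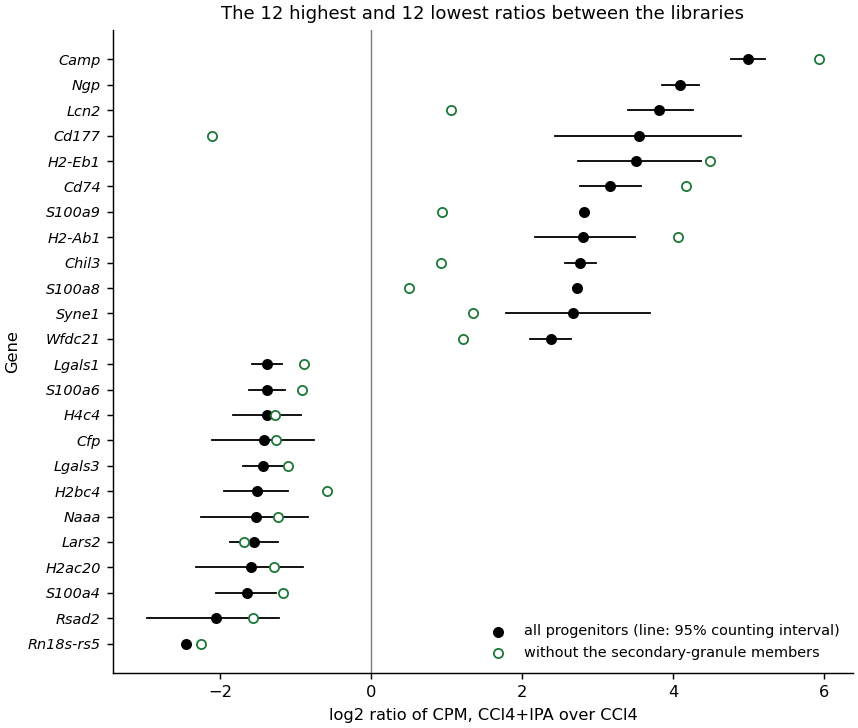
Log2 ratio of CPM, IPA over CCl4 library (horizontal axis), for the 12 highest and the 12 lowest of the genes ranked in progenitors. Filled points are all progenitors with their 95% counting interval and open points leave out the secondary-granule members. The ratio of S100a8 goes from 6.61 to 1.41 and that of Cd177 turns, while Rn18s-rs5 stays low.

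Primary granule genes differed less. Of 14 measured genes of the list 3 were higher and 1 lower (median 0.19), and without the secondary-granule members 1 of 13 was higher and 2 lower (median 0.24). Over all genes measured 10.8% were higher and 11% lower, and 13.4% and 7.37% without those members. Serpinb1a, an inhibitor of elastase, proteinase 3 and cathepsin G, had 131 and 250 UMIs, a ratio of 1.90 (1.53 to 2.37) that was 1.29 without the secondary-granule members. Prss57 had a ratio of 1.52 (1.02 to 2.27). Ctsc, the protease that activates the granule serine proteases, was lower at 204 and 93 UMIs (0.454, 0.352 to 0.583), and at 0.633 without the secondary-granule members and 0.667 in monocyte-rule members. Ms4a3 had 291 and 207 UMIs (0.709, 0.590 to 0.850), and 30.9% of the CCl4 UMIs came from 1 cell.

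Genes of the monocyte branch were lower in the sum over all progenitors. Of 12 measured genes 1 was higher and 5 lower (median -0.38), and without the secondary-granule members, as in monocyte-rule members, 1 was higher and 1 lower. The higher gene was Cd74 in each case. Over all genes measured 10.8% were higher and 11% lower. These shares were 13.4% and 7.37% without the secondary-granule members, and 14.3% and 10.4% in monocyte-rule members. Ccr2, the receptor that brings monocytes to injured liver, had 189 and 93 UMIs (0.490, 0.378 to 0.632), and its ratio was 0.722 within monocyte-rule members. Lgals3 (galectin 3) had 435 and 162 UMIs, 2.70-fold lower (2.25 to 3.25), and was still lower within monocyte-rule members at 0.502 (0.413 to 0.607). Lgals1 (galectin 1) was 2.60-fold lower (2.27 to 2.98), with 0.566 (0.489 to 0.652) in monocyte-rule members, and S100a4 3.14-fold lower (2.39 to 4.16), with 0.525 (0.394 to 0.692). Cfp (properdin, a complement activator) was 2.68-fold lower (1.70 to 4.33).

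MHC class II genes were higher in the IPA library through few cells. Cd74 had 57 and 510 UMIs (8.91, 6.77 to 11.9), and 71.6% of the 510 came from 1 monocyte-rule member with 365 UMIs. H2-Eb1 had 15 and 171 UMIs with 76.6% from 1 cell, and H2-Ab1 23 and 161 with 70.8% from 1 cell. When members with 2 or more UMIs of B, T, NK or macrophage markers were left out (19 and 15 cells kept), the log2 ratio of Cd74 was -0.074 and that of H2-Eb1 -0.96. Rsad2, an antiviral interferon-induced enzyme, was lower at 62 and 15 UMIs, and 58.1% of the 62 came from 1 cell. Of 6 measured genes of mature neutrophils 1 was higher and 3 lower (median -0.74), beside 10.8% and 11% of all genes. Among the lower was Retnlg, a resistin-like protein, with 66 and 10 UMIs and 97.0% of the 66 in 1 cell.

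The lowest ratio was that of Rn18s-rs5, a copy of ribosomal RNA, at 15587 and 2854 UMIs, 5.48-fold lower (5.27 to 5.71). It was not particular to the progenitors, since its level was 75467 and 12416 CPM in the remaining cells, 56193 and 9416 in monocytes and 64704 and 7757 in mature neutrophils. The secondary-granule members stood at 1679 and 2696 CPM, where the CCl4 value comes from 2 cells of 34586 and 2347 UMIs. Lars2, a mitochondrial leucyl-tRNA synthetase, was 2.93-fold lower (2.36 to 3.67) in progenitors and stood at 1495 and 322 CPM in remaining cells. The histone genes H2ac20, H4c4 and H2bc4 were 3.01-fold (1.87 to 5.00), 2.60-fold (1.92 to 3.58) and 2.87-fold (2.14 to 3.88) lower, and H4c4 was also lower in remaining cells at 84.1 and 50.6 CPM.

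Endoplasmic reticulum genes were lower in the IPA library. Their summed level was 7381 and 4715 CPM over all progenitors, 7136 and 5118 in monocyte-rule members and 8482 and 6326 in members of neither rule. In secondary-granule members it was 6959 and 3245, where 1 of the 2 CCl4 cells held 250 of the UMIs and the other 7. Of 17 measured genes 0 were higher and 9 lower over all progenitors (median -0.65), 0 and 6 without the secondary-granule members (median -0.43), and 0 and 5 in monocyte-rule members (median -0.41). In the same order, 10.8%, 13.4% and 14.3% of all genes measured were higher, and 11%, 7.37% and 10.4% lower. Hspa5 (BiP, the main chaperone there) had 500 and 246 UMIs in 25 and 28 cells (0.490, 0.419 to 0.572), with 0.604 in monocyte-rule members. Calr had 527 and 275 UMIs (0.520, 0.448 to 0.603), with 0.609. The values of both were also lower in the IPA library in the other classes, but by less, with Hspa5 nearly level in mature neutrophils. Hspa5 stood at 462 and 397 CPM in monocytes, 169 and 132 in secondary-granule neutrophils and 347 and 331 in mature neutrophils, and Calr at 350 and 292, 76.6 and 52.2, and 132 and 93.3. Ribosome biogenesis genes were lower in 4 of 10 over all progenitors (median -0.53), and in 0 of 10 without the secondary-granule members (median -0.11). Interferon response genes were lower in 4 of 8 (median -0.73), and in 4 of 8 without the secondary-granule members (median -0.29). In monocyte-rule members 1 of 5 was lower and 1 higher (median 0.12). Over all progenitors Bst2 (tetherin) had 121 and 52 UMIs (0.428, 0.303 to 0.597).

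Immediate early genes, which also respond to tissue dissociation, were higher in the IPA library. Of 14 measured genes 4 were higher and 0 lower over all progenitors (median 0.39), 9 and 0 without the secondary-granule members (median 0.82), and 11 and 2 in monocyte-rule members (median 0.87). In the same order, 10.8%, 13.4% and 14.3% of all genes measured were higher, and 11%, 7.37% and 10.4% lower. A single IPA monocyte-rule member, with 365 Cd74 UMIs, held 1339 UMIs of the list, and the next highest progenitor held 611. That cell was the deepest of its library. Without the deepest progenitor of each library Nr4a1, Egr1 and Fosb did not turn sign. Nr4a1, an orphan nuclear receptor, had 143 and 288 UMIs (2.01, 1.64 to 2.47), Egr1 203 and 395 (1.94, 1.63 to 2.31) and Fosb, an AP-1 subunit, 340 and 613 (1.80, 1.57 to 2.06). In monocyte-rule members their ratios were 3.39, 3.47 and 3.08, and the 2 lower genes were the heat shock genes Hspa1a (0.613) and Hspa1b (0.516). The direction did not hold without the members carrying markers of other cells (19 and 15 kept), where the log2 ratios were -1.22 for Nr4a1, -0.65 for Egr1 and -0.76 for Fosb. The markers concerned were those of B cells (19 and 57 UMIs in 9 of 26 and 16 of 31 members), T cells (3 and 25), NK cells (3 and 29) and macrophages (5 and 5), and their part in the result was not tested. With each cell thinned to 1000 UMIs the log2 ratio was -1.15 for Fosb and -0.83 for Jund, another AP-1 subunit.

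**Figure D5:**
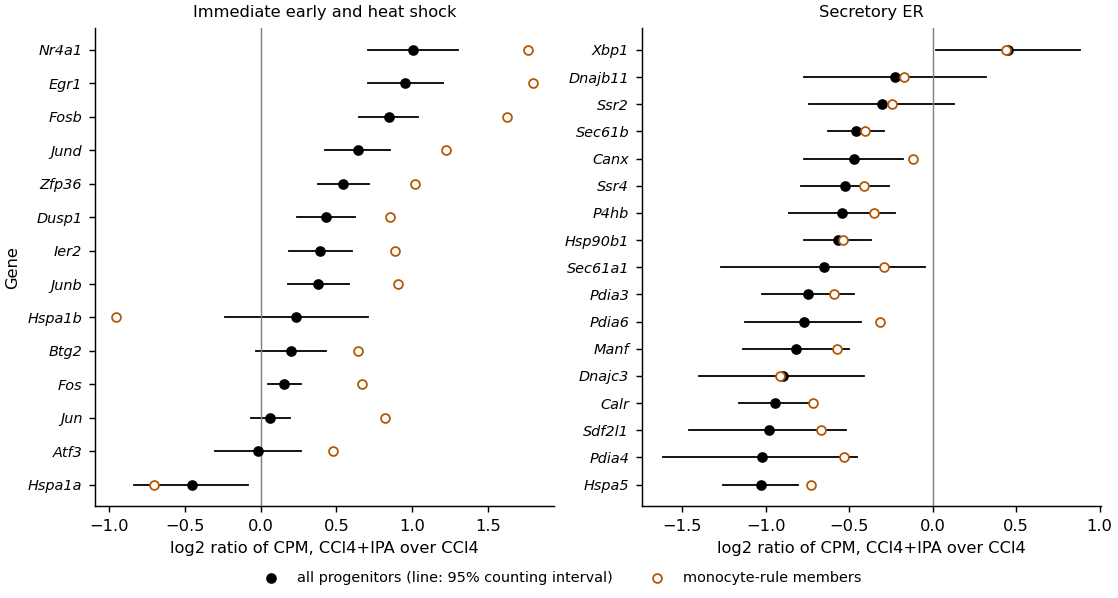
Log2 ratio of CPM, IPA over CCl4 library (horizontal axes), for the measured immediate early and heat shock genes and the endoplasmic reticulum genes. Filled points are all progenitors with 95% counting intervals and open points are monocyte-rule members. Nr4a1, Egr1 and Fosb lie to the right in both (ratios of 2.01, 1.94 and 1.80 over all progenitors), and Hspa5 and Calr lie to the left (0.490 and 0.520).

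Genes of division and of growth factor response differed little. Of 17 S phase genes 2 were higher and 1 lower (median 0.21), and of 19 G2 and M phase genes 0 were higher and 3 lower (median -0.07), near the background of 10.8% and 11%. Of 10 cytokine receptor genes 0 were past 1.5-fold in either direction, with Csf3r at 34 and 39 UMIs and Kit at 34 and 41. Of 5 measured stem and progenitor genes 0 were past 1.5-fold over all progenitors (median 0.40). Without the secondary-granule members 5 of 5 were higher (median 0.93), beside 13.4% of all genes, with Sox4 at 1.98 and Cd34 at 1.87. Of 15 myeloid transcription factors 2 were higher and 0 lower (median -0.05), with Irf8 at 253 and 241 UMIs and Klf4 at 216 and 193. Of 11 retention and egress genes 4 were higher and 1 lower, beside 10.8% and 11% of all genes. Cxcr4, the receptor that holds progenitors in marrow, was among the higher with 75 and 134 UMIs (1.78, 1.33 to 2.39) in 25 and 28 cells, and its ratio was 2.02 without the secondary-granule members and 2.20 in monocyte-rule members. Cxcr4 was also higher in the IPA library in the other classes, at 578 and 1030 CPM in mature neutrophils, 209 and 310 in secondary-granule neutrophils and 199 and 306 in monocytes. The integrin subunits Itgam and Itgb2 had ratios of 2.44 (1.69 to 3.59) and 1.91 (1.26 to 2.94), which were 1.23 and 1.43 without the secondary-granule members. Of 6 NADPH oxidase subunits 1 was higher (Ncf1, 1.79) and 0 lower, and of haem synthesis genes the 1 measured was within 1.5-fold. Of the aryl hydrocarbon and pregnane X receptor genes 0 of 2 measured were past 1.5-fold. Of the receptors through which indoles are known to act, Ahr had 9 UMIs in each library, and its targets Ahrr, Cyp1a1 and Cyp1b1 and the pregnane X receptor Nr1i2 had 0 in both, so no difference in them was detectable at this depth.

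Beside the B, T and NK cell markers given with the immediate early genes, markers of other lineages were counted in the progenitors. The erythroid and eosinophil lists had 0 UMIs in both libraries. The basophil and mast cell list had 5 and 5 UMIs, megakaryocyte markers 2 and 1, stellate cell markers 4 and 2, endothelial markers 33 and 39, hepatocyte markers 2 and 3 and B cell progenitor markers 16 and 9. Of the 6 macrophage markers 5 were at 0, and of dendritic cell markers there were 45 and 12 UMIs, of which the 2 secondary-granule members of the CCl4 library held 30.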

How the data were processed

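Gene counts were deposited by the authors as raw UMI counts for each cell. Per the file headers they come from Cell Ranger 7.1.0, and, per the submitters' processing notes, from the mm9 genome. The members and gene lists were chosen with earlier results of these data known. A cell was kept with 500 or more UMIs, 300 or more genes and a mitochondrial share under 20%. For each class the counts of a library were added up and scaled to 1000000 (CPM). With 1 library per group no test across samples was made. Intervals were exact Poisson, exact conditional binomial (ratios) and Clopper-Pearson (shares), at 95%, and cover counting error only. Genes named were the 12 highest and 12 lowest between libraries and the 12 highest and 8 lowest against each class, of genes at 100 CPM or more with at least 50 UMIs on the higher side, and of each list up to 4 genes by UMIs with its highest and lowest ratio. Genes that another class held at over 10-fold the CPM in each library had a ranking of their own, since free RNA could carry them (Ltf, H2-Aa, Ccl5, Retnlg and Cxcl2 between libraries). Further genes were chosen after their values were seen. Secondary-granule and monocyte rules were used in that order, so a monocyte holds few secondary granule transcripts by construction. Mature neutrophils had at least 2 of Retnlg, Cxcr2, Csf3r and Mmp9. Doublets were called with Scrublet in scanpy 1.11.5. Python 3.11.15, numpy 2.4.6, scipy 1.17.1 and pandas 2.3.3 were used, and the counting of changed genes was tested on simulated data.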

Additional observations from a re-analysis of the deposited data

How the results depend on the processing

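No paired analysis was possible because each group has 1 library. The share of progenitors (log2 ratio 0.23) moved in 1 of 13 settings, to -1.46 with a limit of 1 UMI per gene, where the log2 ratio of the monocyte-rule share went from -0.53 to 1.04. The makeup by the secondary-granule rule moved in 0 of 13. A ratio of shares counted as moved only when it left the counting interval of the reported ratio. That interval was 0.894 to 39.4 for the secondary-granule rule, so even a ratio of 1 would not have counted as moved. Of 3519 genes tested 381 were higher and 387 lower in the IPA library. There were 1055 and 909 (of 6600) at 20 or more UMIs, 123 and 187 (of 1761) at 100 or more, and 11 and 11 with each cell thinned to 1000 UMIs, where 89 genes were tested. Leaving out members with markers of other cell types gave 137 higher (of 1836). In alternatives added after seeing the data, 221 were lower (of 3000, 7.37%) without the secondary-granule members and 243 (of 2329, 10.4%) in monocyte-rule members, the latter near the 11% of the whole. Against secondary-granule neutrophils (2128 higher, 510 lower of 5621) the counts of higher genes were 1367 (of 4515) without members carrying other markers, 118 thinned (81 lower, of 424), 3314 (of 8328) at 20 or more UMIs and 1228 (of 3442) at 100 or more. Against mature neutrophils 2143 higher (of 7713) became 1351 (of 5602) at 100 or more UMIs. Fewer or more genes tested move these counts.

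Of 856 log2 ratios of 49 genes under alternatives, 581 stayed within the counting interval of the reported ratio and 249 moved out of it. S100a8, S100a9 and Rn18s-rs5 moved most often, each in 13 settings, and stayed in 5. The remaining 26 ratios turned sign, in 15 genes. With a limit of 1 UMI these were H2-Eb1 (-0.31), Cd74 (-0.68), H2-Ab1 (-0.78), Ltf (-0.14), H2-Aa (-0.60) and Ccl5 (-1.50). Without members carrying other markers they were H2-Eb1 (-0.96), Cd74 (-0.074), H2-Aa (-0.54), Fosb (-0.76), Egr1 (-0.65), Nr4a1 (-1.22), Jund (-0.17) and Il1b (-1.0). Thinned, they were Fosb (-1.15) and Jund (-0.83). Retnlg turned to 2.45 with 3 genes required, 2.71 with 5 UMIs, 3.18 without Elane in the rule and 2.45 without Prtn3. Il1b turned to -0.0061 without Mpo in the rule and, in an added alternative, -0.038 without the deepest progenitor of each library. In the other added alternatives Cd177 turned to -2.11 without the secondary-granule members, and Cd177 (-1.75), Fcnb (-0.63) and Cebpe (-0.42) turned in monocyte-rule members. The causes were not tested. Summed depths of 581063 and 583219 UMIs limit all of these to genes above 5.16 and 5.14 CPM.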
